A study of Mus musculus with 7 samples.

Results

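The receptors through which neutrophils sense colony-stimulating factors, interleukins and interferons were followed at the transcript level in neutrophils of the injured liver. The set comprised 10 genes, taken by symbol: Csf3r, Csf2ra, Csf2rb, Csf2rb2, Il4ra, Il6ra, Il10ra, Il17ra, Ifngr1 and Ifnar1. All 10 were among the 16047 genes of the deposited table, and all 10 were among the 9594 genes that were tested, whose mean was 1 RPKM or more (a read count scaled to transcript length and to the mapped reads of the library). Male C57BL/6 mice of 8 to 12 weeks received 300 mg/kg of acetaminophen, which causes acetaminophen-induced liver injury (AILI), and 50000 neutrophils per liver (CD11b+, Ly6G+, Ly6Clo and without CX3CR1-GFP signal) were sorted at 24 h. The PBS group (4 mice, replicates 5 to 8) received PBS, and the MC-21 group (3 mice, replicates 2 to 4) received 400 µL of conditioned medium with 29 µg/mL of MC-21, an antibody to the chemokine receptor CCR2 that removes circulating Ly6Chi monocytes. Injections began 12 h before acetaminophen and were repeated every 24 h. Every mouse was injured, and the controls received neither conditioned medium nor another antibody, so an effect of the antibody medium and one of monocyte absence cannot be told apart. The genotype behind the GFP signal is not given in the labels of these libraries.

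Most of these receptors work as pairs of chains. One chain binds the cytokine and a second chain, often shared between cytokines, completes the receptor. JAK kinases bound to the receptor then activate STAT transcription factors. The IL-17 receptor is the exception in the set, since it signals through adaptor proteins rather than JAK kinases. In neutrophils, G-CSF and GM-CSF control production and survival, type II interferon primes microbial killing and antigen presentation, and IL-4, IL-10 and the SOCS family of feedback inhibitors restrain activation.

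Many chains of this kind carry the WSXWS box, a run of tryptophan and serine residues around a variable residue. In the mm9 gene models (GENCODE M1) the box was found in the coding sequence of 5 of the 10 receptors, against 0.314% of the 22594 gene symbols with a coding sequence, where 71 held it. Its coding DNA is shown for the 5, 5′ to 3′ on the coding strand. It is the stretch by which the 5 were picked, and it shows how alike Csf2rb and Csf2rb2 are there. Capitals mark the 5 codons of the box, with 15 coding bases on either side in lower case, and the coordinates are those of the capitals.
Csf3r, exon 7 of 16, plus strand, chr4:125711774-125711788: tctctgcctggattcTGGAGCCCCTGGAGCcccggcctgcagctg
Csf2rb, exon 10 of 14, plus strand, chr15:78175946-78175960: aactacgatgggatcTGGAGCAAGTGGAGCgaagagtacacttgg
Csf2rb2, exon 10 of 14, minus strand, chr15:78118346-78118360: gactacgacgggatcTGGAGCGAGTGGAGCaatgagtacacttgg
Il4ra, exon 7 of 11, plus strand, chr7:132715068-132715082: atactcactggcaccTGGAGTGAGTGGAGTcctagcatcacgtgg
Il6ra, exon 6 of 10, minus strand, chr3:89689852-89689866: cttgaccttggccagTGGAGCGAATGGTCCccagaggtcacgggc
The letters of the box were not matched in the coding sequence of Csf2ra, Il10ra, Il17ra, Ifngr1 or Ifnar1. Of their 8 partner chains, 3 (Il2rg, Il13ra1 and Il6st) held it.

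The libraries were shallow 3′ libraries. Low RPKM values fell on multiples of what 1 read is worth, with 74.7% of 5172 low values within 0.1 of a whole read, so that for a transcript of 1 kb a value of 1 RPKM stood for 2.66 to 3.96 reads in PBS libraries and for 1.59 to 3.57 reads in MC-21 libraries. The median log2 fold change (MC-21 minus PBS) over all genes tested was -0.15, so values are also given relative to that shift. PBS replicate 6 stood nearest to the MC-21 libraries. Among the 344 genes that were higher in MC-21 neutrophils with an unadjusted p under 0.05 from limma, it was the highest PBS library in 175 (50.9%). All 10 neutrophil markers were detected in every library (summed level 18124 to 30622 RPKM in PBS and 27503 to 40952 RPKM in MC-21 libraries). The summed level of 17 monocyte and macrophage markers was 528 to 601 RPKM in PBS and 245 to 316 RPKM in MC-21 libraries, with Ccr2, Ms4a7, Mertk and Vsig4 at 0 in at least 1 library. Lymphocyte markers (7 of 8 in the table) summed to 11.6 to 27.8 RPKM in PBS and 6.22 to 9.38 RPKM in MC-21 libraries, with Cd3g, Cd79a, Ms4a1, Ncr1 and Klrb1c at 0 in at least 1 library. Both sums were lower in every MC-21 library than in any PBS library, whereas endothelial, hepatocyte, and eosinophil and basophil sums overlapped. The sums weigh the highest genes most, which by PBS mean were C1qb (155 RPKM) and C1qa (117 RPKM), and Cd79b (12 RPKM) among lymphocyte markers. Taken singly, 7 of 14 monocyte and macrophage markers tested and 1 of 3 lymphocyte markers tested (Cd79b) were lower without overlap. Of all 9594 genes tested, 983 were lower without overlap. Among the 7, Ccr2 and Cx3cr1 (0.197 and 0.628 RPKM on average in MC-21 libraries) passed the mean of 1 RPKM through the PBS libraries. Their being lower is therefore no support for a difference. The lymphocyte markers Cd3g and Cd79a also passed it through the PBS libraries.

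Transcript levels of the 10 receptors spanned a wide range. In PBS neutrophils Csf3r, which encodes the G-CSF receptor and is itself a neutrophil marker, stood first at 301 ± 27.6 RPKM (SD, n = 4), above 97.2% of all genes tested by its mean over the 7 libraries. Il17ra (89.1 ± 18 RPKM) and Ifngr1 (86.4 ± 5.92 RPKM) followed, and their libraries overlapped in range. The range of Il17ra (66.3 to 108 RPKM) also overlapped with those of Il4ra (59.8 to 80.5 RPKM) and Csf2rb (53.7 to 74.9 RPKM). Il4ra (74 ± 9.61 RPKM) overlapped with Csf2rb (64.1 ± 11 RPKM), and Csf2ra (43 ± 3.59 RPKM) stood alone below them. The 4 lowest, Il10ra (20.4 ± 4.46 RPKM), Il6ra (15.2 ± 4.18 RPKM), Csf2rb2 (14.6 ± 10.2 RPKM) and Ifnar1 (7.25 ± 1.22 RPKM), each overlapped with the next in that order. These comparisons between genes depend on the transcript length by which the authors divided, which is not given in the sources used here, and reads of a 3′ library do not grow in number with transcript length.

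In MC-21 neutrophils Csf3r was again first (298 ± 5.6 RPKM, SD, n = 3), but Ifngr1 stood second at 140 ± 22.7 RPKM, apart from all receptors below it. Il4ra (91 ± 19.9 RPKM), Csf2rb (89.7 ± 18.9 RPKM) and Il17ra (81.3 ± 24.8 RPKM) formed an overlapping group. Csf2ra (41.6 ± 1.81 RPKM), Csf2rb2 (37.8 ± 39.5 RPKM), Il10ra (25.7 ± 6.97 RPKM) and Il6ra (18.1 ± 3.52 RPKM) overlapped in sequence. Ifnar1 (6.11 ± 0.717 RPKM) was last, below every library of Il6ra, and its range overlapped with that of Csf2rb2. The range of Csf2rb2 (5.32 to 81.8 RPKM) also overlapped with those of Il4ra, Csf2rb and Il17ra.

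**Figure D1:**
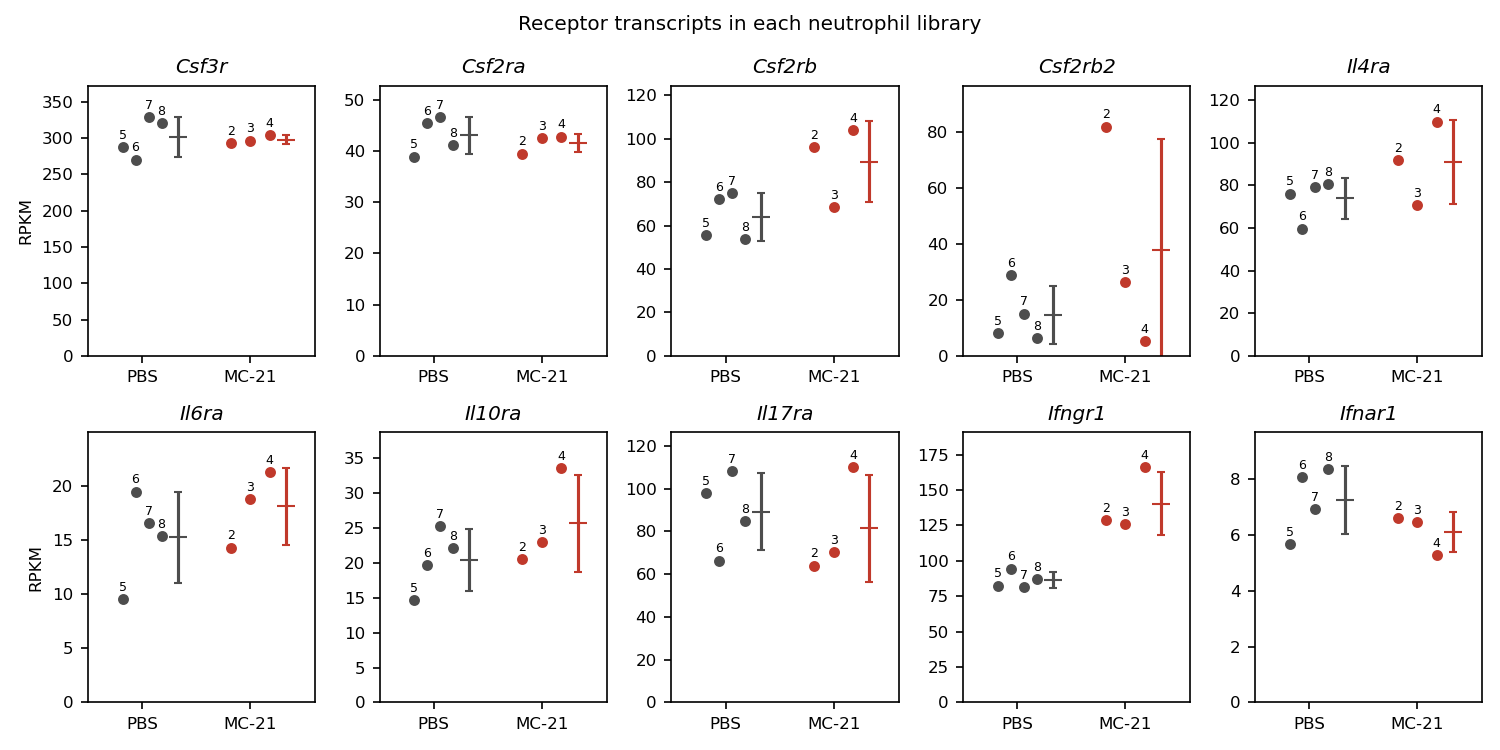
RPKM of the 10 receptor transcripts in each neutrophil library (vertical axes start at 0), with the mouse number beside each point and bars for the mean ± SD of 4 PBS and 3 MC-21 libraries, where the bar of Csf2rb2 in MC-21 neutrophils is cut off at 0. Ifngr1 is the receptor in which every MC-21 library (126 to 166 RPKM) lies above every PBS library (81.4 to 94.5 RPKM), and Csf2rb2 is the one with the widest scatter, from 5.32 to 81.8 RPKM.

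The comparison of MC-21 with PBS neutrophils asks which receptor transcripts differ when circulating monocytes are removed. With limma and Benjamini-Hochberg adjustment over all genes tested, 0 of the 10 receptors had an adjusted p under 0.05, against 0.625% of all genes. At an unadjusted p under 0.05 there were 2, against 14.7% of all genes. Both, Ifngr1 and Csf2rb, were higher in MC-21 neutrophils, where 3.59% of all genes were higher at that threshold, and 0 of the 10 were lower, where 11.2% of all genes were. A 2-fold or larger difference together with that threshold was found in 0 of the 10 and in 2.7% of all genes. The groups did not overlap in 1 receptor, Ifngr1, and in 13.3% of all genes.

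Log2 fold changes were positive in 6 receptors and negative in 4, where 69.4% of all genes were negative. Their median was 0.27, and 8 of the 10 lay above the median of all genes. This was not particular to the receptors. The 10 neutrophil markers, which include Csf3r, had a median of 0.42, and 9 of them lay above the median of all genes. The split of the receptors depended on scaling. It was 9 positive and 1 negative with median centring of the libraries, and 7 positive and 3 negative after quantile normalization. Under both scalings 2 receptors were higher with an unadjusted p under 0.05. In the same comparison 75.7% of all genes with an unadjusted p under 0.05 were lower in MC-21 neutrophils, a share that was 38.9% with centring and 46.7% after quantile normalization.

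**Figure D2:**
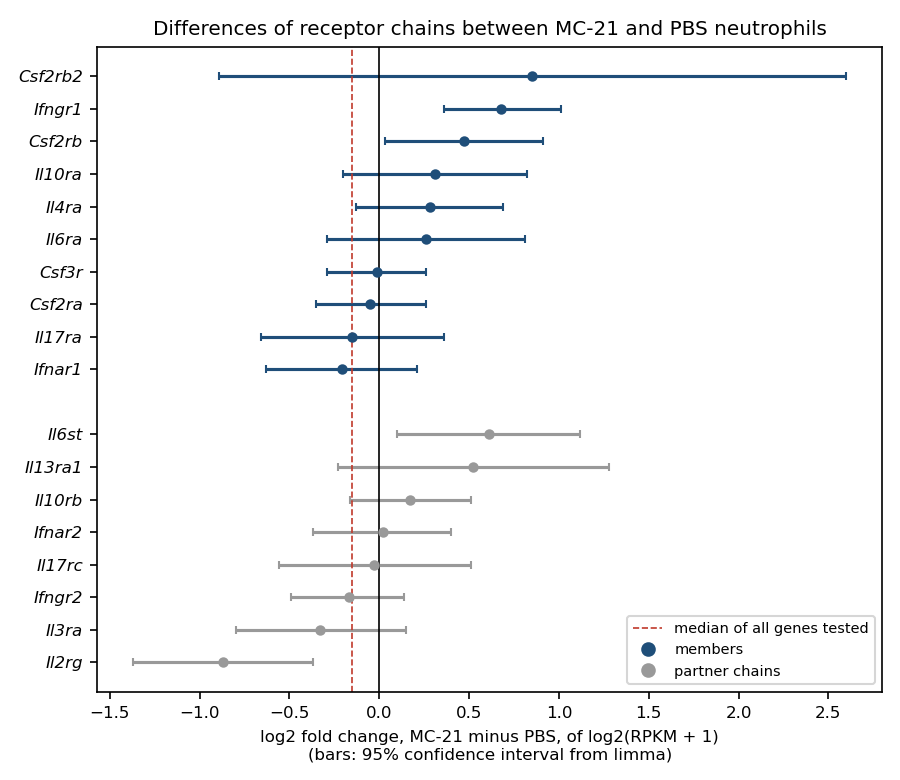
Log2 fold change (MC-21 minus PBS, of RPKM + 1) with its 95% confidence interval from limma for the 10 receptors (blue) and their 8 partner chains (grey), with the median of all genes tested, -0.15, as a dashed line. The interval lies above 0 for Ifngr1, Csf2rb and Il6st and below 0 for Il2rg, and that of Csf2rb2 is the widest, from -0.89 to 2.60.

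Ifngr1, which encodes the chain that binds interferon gamma, had 82.6, 94.5, 81.4 and 87.2 RPKM in PBS replicates 5 to 8 and 129, 126 and 166 RPKM in MC-21 replicates 2 to 4. All MC-21 values exceeded all PBS values, and the gap between the groups was wider than the spread of the PBS libraries. Its log2 fold change was 0.68 (standard error 0.14, 95% confidence interval 0.36 to 1.01), a fold of 1.61, and 0.83 relative to the median of all genes. Its unadjusted p from limma was 0.00095 and its adjusted p 0.076. Over 13 other ways of processing the log2 fold change lay between 0.56 and 0.85 and the unadjusted p under 0.05 each time, while the adjusted p lay between 0.0606 and 0.233, so the adjusted threshold was passed in none of them. Without PBS replicate 6 its log2 fold change was 0.73 (adjusted p = 0.0802 from limma). The gene lies on chromosome 10 (mm9, 19311755 to 19330035, plus strand), and no other gene shares its exons.

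The partner chain Ifngr2, which couples the interferon gamma receptor to JAK2, had 78.3, 96, 86.6 and 90.4 RPKM in PBS libraries and 68, 82.9 and 83 RPKM in MC-21 libraries. The groups overlapped, with a log2 fold change of -0.17 (95% confidence interval -0.49 to 0.14, adjusted p = 0.619 from limma). Within each library the ratio of Ifngr1 to Ifngr2 was 1.06, 0.984, 0.94 and 0.965 in PBS neutrophils and 1.9, 1.52 and 2.01 in MC-21 neutrophils. The ratio is free of any scaling of the library, and its groups did not overlap (0.986 ± 0.0496 against 1.81 ± 0.257, SD). It is a description and was not tested. Summed monocyte and lymphocyte markers were lower in the same MC-21 libraries in which Ifngr1 was higher. The part of those cells in the difference was not tested. In bulk samples of sorted cells, fewer cells of a type and less RNA per cell cannot be told apart.

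The type I interferon receptor chains had lower RPKM values than those of the type II receptor. Ifnar1, its low-affinity chain, had 5.67, 8.05, 6.92 and 8.35 RPKM in PBS libraries and 6.59, 6.45 and 5.28 RPKM in MC-21 libraries. The groups overlapped, and the log2 fold change was -0.21 (95% confidence interval -0.63 to 0.21, adjusted p = 0.651 from limma), or -0.06 relative to the median of all genes. From the depth and the annotated transcript, these values stood for about 40 to 129 reads per library. Its partner Ifnar2, the ligand-binding chain, averaged 50.1 ± 9.25 RPKM over the 4 PBS libraries and 50.3 ± 5.12 RPKM over the 3 MC-21 libraries (mean ± SD), with a log2 fold change of 0.02 (95% confidence interval -0.37 to 0.40). Ifnar2 shares 569 exon bases with Il10rb on the same strand, so reads of these genes may not be separated there. The ratio of Ifnar1 to Ifnar2 was 0.127 to 0.182 in PBS and 0.118 to 0.126 in MC-21 libraries, without overlap, though the lowest PBS and the highest MC-21 library were next to each other. Ifngr1 exceeded Ifnar1 by a ratio of 10.4 to 14.6 in PBS and of 19.5 to 31.5 in MC-21 libraries.

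**Figure D3:**
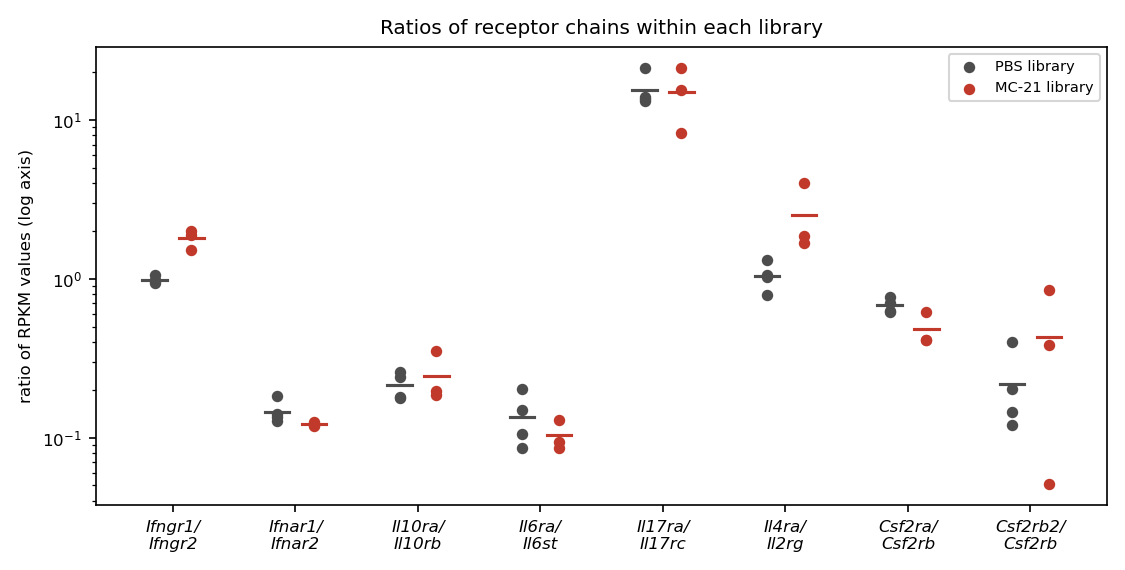
Ratio of the RPKM of paired receptor chains within each library (log axis), with 1 point per PBS or MC-21 library and a line at the group mean. The groups are apart for Ifngr1/Ifngr2 and Il4ra/Il2rg (MC-21 higher). For Ifnar1/Ifnar2 and Csf2ra/Csf2rb (MC-21 lower) they do not overlap but nearly touch. There the lowest PBS and highest MC-21 ratios are 0.127 and 0.126, and 0.622 and 0.621. The groups overlap for the other 4 ratios.

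The receptors for GM-CSF and IL-3 are built from ligand-binding alpha chains and a beta chain that signals. Csf2ra, the alpha chain for GM-CSF, had 38.9, 45.5, 46.6 and 41.2 RPKM in PBS libraries and 39.5, 42.5 and 42.8 RPKM in MC-21 libraries. The MC-21 libraries all lay within the PBS range, with a log2 fold change of -0.05 (95% confidence interval -0.35 to 0.26, adjusted p = 0.902 from limma). Its sign turned with scaling, to 0.12 with median centring and 0.02 after quantile normalization. Across the 7 libraries the highest value was 1.2 times the lowest, the smallest spread of the set.

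Csf2rb, the common beta chain used by GM-CSF, IL-3 and IL-5, had 55.6, 72.3, 74.9 and 53.7 RPKM in PBS libraries and 96.2, 68.4 and 104 RPKM in MC-21 libraries. MC-21 replicates 2 and 4 were above every PBS library, and replicate 3 lay within the PBS range. This gave a log2 fold change of 0.47 (standard error 0.19, 95% confidence interval 0.03 to 0.91), a fold of 1.39, and 0.62 relative to the median of all genes. Its unadjusted p from limma was 0.037 and its adjusted p 0.315. The unadjusted p was under 0.05 in 8 of 13 other ways of processing. It was 0.0539 in limma without a trend, 0.0844 and 0.0937 without PBS replicate 5 or 8, and 0.109 and 0.135 without MC-21 replicate 2 or 4, and the log2 fold change was lowest, 0.35, without MC-21 replicate 4. The ratio of Csf2ra to Csf2rb was 0.622 to 0.768 in PBS and 0.41 to 0.621 in MC-21 libraries, so the highest MC-21 and the lowest PBS library were next to each other.

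Csf2rb2 encodes a second beta chain that mice carry and that serves IL-3. It had 8.01, 28.9, 15.1 and 6.45 RPKM in PBS libraries and 81.8, 26.3 and 5.32 RPKM in MC-21 libraries. The highest and the lowest of the 7 libraries were both MC-21 libraries, 15.4 times apart, which is the widest spread of the 10 receptors. These values stood for about 68 to 1348 reads per library. The log2 fold change of 0.85 had a 95% confidence interval of -0.89 to 2.60 (adjusted p = 0.653 from limma). It rested on single libraries, with -0.03 without MC-21 replicate 2 and 1.82 without MC-21 replicate 4 (adjusted p = 0.338 from limma).

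Csf2rb2 and Csf2rb are neighbours on chromosome 15 (mm9, 78112947 to 78136052 on the minus strand, and 78156420 to 78184277 on the plus strand), with 20367 bases between them. The 45 bases printed above for them differ at 5 positions. Over 2631 aligned coding bases they were identical at 95.2%, and 26% of the 50-base words of the Csf2rb coding sequence also occurred in Csf2rb2. The last 500 bases of the transcripts, nearest to where 3′ reads fall, were identical at 82.9% and shared 0 such words. How the authors assigned reads that match both genes is not given in the sources used here, so the division of reads between them is uncertain. Their sum was 63.6, 101, 90 and 60.2 RPKM in PBS and 178, 94.7 and 110 RPKM in MC-21 libraries (78.7 ± 20 against 127 ± 44.4, SD), with overlap between the groups. The ratio of Csf2rb2 to Csf2rb ranged from 0.0509 in MC-21 replicate 4 to 0.85 in MC-21 replicate 2.

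Il3ra, the alpha chain for IL-3, averaged 12.3 ± 2.92 RPKM over the 4 PBS libraries and 9.45 ± 1.48 RPKM over the 3 MC-21 libraries (mean ± SD), with a log2 fold change of -0.33 (95% confidence interval -0.80 to 0.15, adjusted p = 0.511 from limma).

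Csf3r, the receptor of the main growth factor of neutrophils, works as a pair of identical chains and needs no partner. It had 287, 270, 328 and 320 RPKM in PBS libraries and 293, 296 and 304 RPKM in MC-21 libraries. The MC-21 libraries all lay within the PBS range, and the highest of the 7 values was 1.22 times the lowest. Csf3r had a log2 fold change of -0.01 with a 95% confidence interval of -0.29 to 0.26 (adjusted p = 0.974 from limma), or 0.13 relative to the median of all genes. It stood for about 1796 to 4827 reads per library, the most of the set. Its sign turned positive (0.15) with median centring.

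Il4ra, which binds IL-4 and forms the IL-13 receptor as well, had 76.2, 59.8, 79.3 and 80.5 RPKM in PBS libraries and 92, 70.7 and 110 RPKM in MC-21 libraries. MC-21 replicates 2 and 4 were above all PBS libraries and replicate 3 was not. For Il4ra the log2 fold change was 0.28 (95% confidence interval -0.13 to 0.69, unadjusted p = 0.157 and adjusted p = 0.511 from limma), with an unadjusted p of 0.0382 when MC-21 replicate 3 was left out.

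Il2rg encodes the common gamma chain, which completes the IL-4 receptor in blood cells. It had 58.1, 75.3, 75.1 and 78 RPKM in PBS libraries and 54.4, 37.8 and 27.7 RPKM in MC-21 libraries. Every MC-21 library was below every PBS library, although PBS replicate 5 and MC-21 replicate 2 were close. For Il2rg the log2 fold change was -0.87 (standard error 0.22, 95% confidence interval -1.37 to -0.37), and its unadjusted p was 0.00329 and its adjusted p 0.137 from limma. The ratio of Il4ra to Il2rg was 0.795 to 1.31 in PBS and 1.69, 1.87 and 3.99 in MC-21 libraries, without overlap. Il2rg is also expressed by lymphocytes and monocytes, and the part of those cells in this difference was not tested. Their summed markers, though not each marker, were lower in every MC-21 library. The sums were 6.22 to 9.38 RPKM against 11.6 to 27.8 RPKM in PBS for lymphocytes. For monocytes and macrophages they were 245 to 316 RPKM against 528 to 601 RPKM in PBS. Il2rg shares 728 exon bases with the gene model Gm20489 on the same strand. The alternative partner Il13ra1 had 2.34 to 6.87 RPKM in PBS and 3.87 to 9.57 RPKM in MC-21 libraries, with a log2 fold change of 0.52 (adjusted p = 0.511 from limma).

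Il6ra, the IL-6 binding chain, had 9.53, 19.5, 16.6 and 15.4 RPKM in PBS libraries and 14.3, 18.8 and 21.3 RPKM in MC-21 libraries. The groups overlapped, with a log2 fold change of 0.26 (95% confidence interval -0.29 to 0.81, adjusted p = 0.663 from limma). Il6st encodes gp130, the signalling chain that IL-6 shares with related cytokines. It had 90.8, 96.6, 111 and 180 RPKM in PBS libraries and 167, 201 and 164 RPKM in MC-21 libraries. PBS replicate 8 lay among the MC-21 libraries and the other PBS libraries lay below them. The log2 fold change was 0.61 (standard error 0.23, unadjusted p = 0.0245 and adjusted p = 0.274 from limma), and 0.82 without PBS replicate 8 (adjusted p = 0.122 from limma). Its unadjusted p was 0.0614 and 0.0602 without PBS replicate 5 or 6 and 0.0872 without MC-21 replicate 3. Endothelial cells also express Il6st, and the summed level of endothelial markers was 768 to 1308 RPKM in PBS and 758 to 918 RPKM in MC-21 libraries, and their part in the difference was not tested. The ratio of Il6ra to Il6st overlapped between the groups, at 0.0857 to 0.202 in PBS and 0.086 to 0.13 in MC-21 libraries.

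Il10ra, the chain that binds the anti-inflammatory cytokine IL-10, had 14.7, 19.7, 25.3 and 22.1 RPKM in PBS libraries and 20.5, 23 and 33.6 RPKM in MC-21 libraries. Only MC-21 replicate 4 was outside the PBS range. Il10ra had a log2 fold change of 0.31 (95% confidence interval -0.20 to 0.82, adjusted p = 0.566 from limma), and it was 0.11 without that library. Il10rb, its signalling partner, averaged 95.5 ± 12.7 RPKM over the 4 PBS libraries and 108 ± 10.6 RPKM over the 3 MC-21 libraries (mean ± SD), with a log2 fold change of 0.17 (adjusted p = 0.637 from limma). The ratio of Il10ra to Il10rb was 0.177 to 0.258 in PBS and 0.185 to 0.352 in MC-21 libraries.

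Il17ra, the shared chain of the IL-17 receptors, had 97.7, 66.3, 108 and 84.6 RPKM in PBS libraries and 64, 70.1 and 110 RPKM in MC-21 libraries. The lowest and the highest library were both from MC-21 mice. The log2 fold change of -0.15 (95% confidence interval -0.66 to 0.36, adjusted p = 0.796 from limma) equalled the median of all genes, and it was 0.01 with median centring. Its partner Il17rc averaged 5.86 ± 0.96 RPKM over the 4 PBS libraries and 5.93 ± 2.27 RPKM over the 3 MC-21 libraries (mean ± SD), with a log2 fold change of -0.03 whose sign turned with either scaling (0.14 in both). Of 8 IL-17 receptor adaptors and related genes, 6 could be tested, and 0 had an unadjusted p under 0.05, against 14.7% of all genes. All 6 had negative log2 fold changes, as did 69.4% of all genes tested. Their median was -0.20, against -0.15 for all genes.

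The other cytokine receptors give the setting of these values. Of 35 listed, 30 were in the table and 15 were tested. Their median log2 fold change was -0.16, against -0.15 for all genes, with 4 positive and 11 negative, where 69.4% of all genes were negative. An adjusted p under 0.05 was reached by 0, and an unadjusted p under 0.05 by 2, both lower in MC-21 neutrophils, where 11.2% of all genes were lower at that threshold. Csf1r, the receptor of the macrophage growth factor and one of the monocyte markers, had 41.5, 57.2, 79.7 and 70.5 RPKM in PBS libraries and 49.1, 32.9 and 40 RPKM in MC-21 libraries, with a log2 fold change of -0.58 (unadjusted p = 0.0345 and adjusted p = 0.307 from limma). Its unadjusted p was above 0.05 under both scalings, at 0.101 with median centring and 0.0597 after quantile normalization, and between 0.0686 and 0.131 without PBS replicate 7 or 8 or MC-21 replicate 3 or 4. Il21r, the IL-21 receptor, had 0.971, 2.42, 3.61 and 1.74 RPKM in PBS libraries and 0.644, 0 and 0.69 RPKM in MC-21 libraries, with a log2 fold change of -1.11 on the log2(RPKM + 1) scale (unadjusted p = 0.00736 and adjusted p = 0.182 from limma). Il21r passed the mean of 1 RPKM through the PBS libraries, where it was higher, so its test is no support for a difference, and its levels stand for few reads. The other 15 lay under the mean of 1 RPKM, and the highest value among them in any library was 2.24 RPKM (Il13ra2).

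Transcripts of the ligands were near the limit of detection in these neutrophils. Of 16 ligand genes listed, 8 were in the table, and only Il4 passed the mean of 1 RPKM. Il4 had 0, 1.42, 0 and 0.599 RPKM in PBS libraries and 2.66, 2.98 and 2.13 RPKM in MC-21 libraries. The lowest MC-21 value exceeded the highest PBS value, with a log2 difference of 1.35 (standard error 0.33, unadjusted p = 0.00252 and adjusted p = 0.12 from limma), and 1.61 without PBS replicate 6 (adjusted p = 0.0414 from limma). It passed the filter through the MC-21 libraries, so its test is no support for a difference, at levels that stand for few reads. Csf3, the gene for G-CSF, was listed at 0 in all 4 PBS libraries and had 0.616, 0.461 and 0.791 RPKM in MC-21 libraries. The highest value in any library was 1.04 RPKM for Csf2, 0.628 RPKM for Il13, 1.32 RPKM for Il6, 0.643 RPKM for Il10, 0.431 RPKM for Il17a and 0.496 RPKM for Ifng, and each of these was at 0 in at least 2 libraries.

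Downstream of the receptors, the kinase Jak2, which serves Csf3r, Csf2rb and the interferon gamma receptor, had 23, 39.5, 28.6 and 33.6 RPKM in PBS libraries and 65.3, 53.1 and 56.9 RPKM in MC-21 libraries. The groups were well apart. Its log2 fold change was 0.91 (standard error 0.19, 95% confidence interval 0.47 to 1.34, unadjusted p = 0.00101 and adjusted p = 0.0779 from limma). Jak2 passed the adjusted threshold only with median centring (adjusted p = 0.041 from limma) and without PBS replicate 6 (adjusted p = 0.0445 from limma). Its adjusted p from limma was highest, 0.22, without MC-21 replicate 4. Tyk2, a kinase that can bind Ifnar1, Il10rb and, beside other JAK kinases, Il6st, had 4.74 to 5.8 RPKM in PBS and 3.45 to 3.62 RPKM in MC-21 libraries. The groups did not overlap, with a log2 fold change of -0.46 and an unadjusted p of 0.0212 (adjusted p = 0.264 from limma). With median centring its log2 fold change was -0.30, with an unadjusted p of 0.12 from limma, and without MC-21 replicate 2 its unadjusted p was 0.0549. Of the 10 JAK and STAT genes considered, the other 8 had an unadjusted p of 0.05 or more, and 0 of the 10 had an adjusted p under 0.05 from limma.

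Among 14 feedback inhibitors and phosphatases tested, 3 were higher and 1 was lower in MC-21 neutrophils with an unadjusted p under 0.05, where 3.59% of all genes were higher and 11.2% lower, and the adjusted threshold was passed by 0. Cish, an inhibitor that STAT5 induces below the GM-CSF and IL-3 receptors, had 10.3, 19.7, 8.73 and 13.2 RPKM in PBS libraries and 46.1, 25.4 and 33 RPKM in MC-21 libraries. The groups did not overlap. Its log2 fold change was 1.38 (standard error 0.29, 95% confidence interval 0.74 to 2.02), a fold of 2.6, with an unadjusted p of 0.000828 and an adjusted p of 0.0739 from limma. Cish passed the adjusted threshold only with median centring (adjusted p = 0.0428 from limma) and without PBS replicate 6 (adjusted p = 0.032 from limma). Its adjusted p from limma was highest, 0.209, without PBS replicate 8. Socs1 and Socs2 had log2 fold changes of 1.44 and 1.89 (unadjusted p = 0.00451 and 0.00558, adjusted p = 0.155 and 0.168 from limma). In both, PBS replicate 6 was far above the other PBS libraries, and in Socs1 the groups overlapped. The adjusted p-values of Socs1 and Socs2 from limma were 0.0128 and 0.0061 without PBS replicate 6, and 0.382 and 0.403 without PBS replicate 8. Pias4, an inhibitor of STAT factors, had 9.13 to 14.1 RPKM in PBS and 4.53 to 7.57 RPKM in MC-21 libraries, with a log2 fold change of -0.78 (unadjusted p = 0.00535 and adjusted p = 0.166 from limma). Of 4 genes of receptor shedding and trafficking that were tested, 0 had an unadjusted p under 0.05, against 14.7% of all genes.

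**Figure D4:**
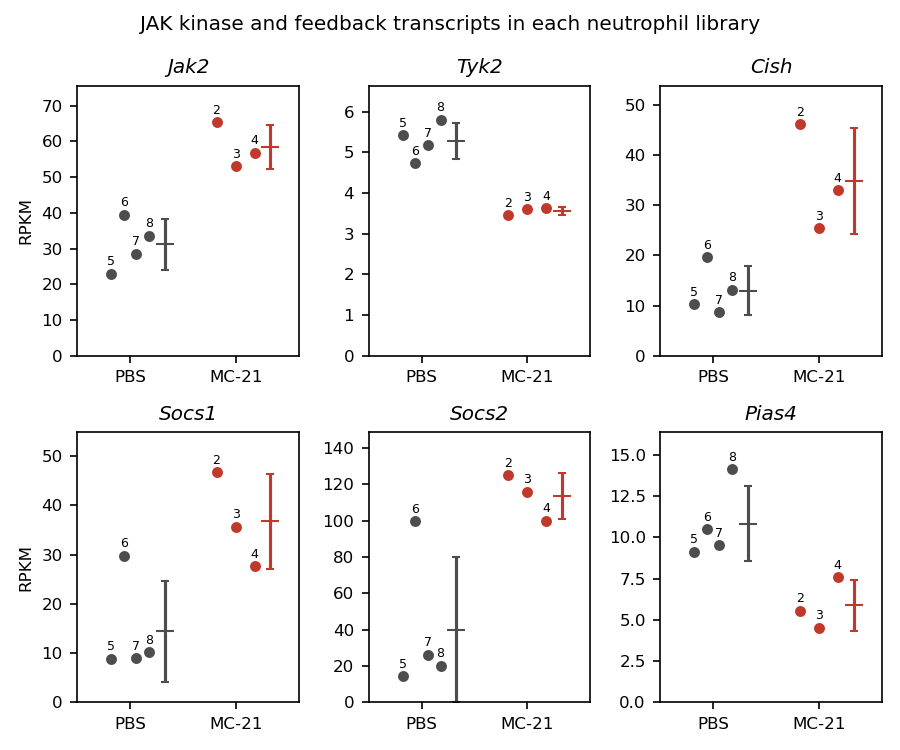
RPKM of 6 JAK kinase and feedback genes in each library (vertical axes start at 0), with the mouse number beside each point and bars for the mean ± SD of 4 PBS and 3 MC-21 libraries. Jak2 (53.1 to 65.3 against 23 to 39.5 RPKM) and Cish (25.4 to 46.1 against 8.73 to 19.7 RPKM) are higher in every MC-21 library, Tyk2 and Pias4 are lower in every one, and in Socs1 and Socs2 PBS replicate 6 lies by itself above the other PBS libraries.

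Over all 58 genes tested from the pathway lists beside the 10 receptors, 11 had an unadjusted p from limma under 0.05, of which 6 were higher and 5 lower in MC-21 neutrophils, against 14.7% of all genes (3.59% higher and 11.2% lower). The 11 include Il4 (higher) and Il21r (lower), each of which passed the mean of 1 RPKM through the group where it was higher. Those tests are no support for a difference. Over the 58, the median log2 fold change was -0.10, and the adjusted threshold was passed by 0.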

How the data were processed

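RNA of neutrophils sorted from 7 injured livers (4 PBS and 3 MC-21) was sequenced by the authors as 3′ libraries on an Illumina NextSeq, demultiplexed with bcl2fastq, mapped to mm9 with HISAT 0.1.5, converted with SAMtools and quantified in Partek Genomics Suite 6.6. The deposited values are RPKM per gene and library, normalized by the authors for transcript length and mapped reads. The annotation, transcript lengths, molecular barcodes, reads matching several genes and filters are not given in the sources used here. No column was left unmatched to a mouse. Of the 16047 genes, 269 were at 0 in every library.

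From these values, MC-21 minus PBS was fitted on log2(RPKM + 1), a scale that understates the change of low genes, for genes whose mean was 1 RPKM or more, with limma 3.58.1 (lmFit, eBayes with a trend) in R 4.3.3 and Benjamini-Hochberg adjustment over these 9594 genes. The fit was tested on simulated data. A count test was not run. Depth was read from 982 low genes, of which 449 gave a value within 1% of the most frequent one. For a 1 kb transcript 1 RPKM was worth between 1.59 and 3.96 reads, so values near 1 RPKM are imprecise. Alternatives were a pseudocount of 0.1, no filter, a mean of at least 5 RPKM, median centring, quantile normalization, no trend and leaving out each library. All receptors, partner chains and ligands are named, with up to 4 genes with the lowest unadjusted p under 0.05 from each other list. The receptors and lists were chosen with earlier results of these data known. Gene models and coding sequences are from GENCODE M1 on mm9 and were read with Biopython 1.88, pandas 2.3.3 and Python 3.11.15. In genes with several transcripts the longest coding sequence was used, and read numbers were estimated with the longest transcript. Ratios of chains were not tested. The result of 1 gene is not reported here, and it is left out of the lists and their counts, while it stayed in the fit and its adjustment.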

Additional observations from a re-analysis of the deposited data

Results flagged for a closer look

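Of 37 values examined in the 4 PBS libraries, 4 had 1 library far from the others by Dixon's ratio at its 95% level, where chance flags about 1 in 20. Il2rg had 58.1 RPKM in PBS replicate 5 and 75.1 to 78 RPKM in the others (ratio 0.852). PBS replicate 6 stood apart in both Socs1, with 29.8 RPKM against 8.91 to 10.2 RPKM (ratio 0.939), and Socs2, with 99.6 RPKM against 14.3 to 26.2 RPKM (ratio 0.861). The ratio of Il17ra to Il17rc was 21.3 in PBS replicate 7 and 13.1 to 13.9 in the others (Dixon's ratio 0.899). None of the values of the 10 receptors themselves was flagged in this way.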

How the results depend on the processing

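No receptor had an adjusted p under 0.05 in any of the 13 alternatives. The number with an unadjusted p under 0.05 was 2 as reported, 1 in limma without a trend, and 1 to 3 when each library was left out. Over all genes, the 60 with an adjusted p under 0.05 became 6 without a filter on low values, and 9 (without PBS replicate 8) to 102 (without PBS replicate 6) when each library was left out. The adjusted calls were 19 higher and 41 lower as reported, 44 higher and 30 lower with median centring, and 26 higher and 29 lower after quantile normalization. Of 348 recomputed log2 fold changes of 27 genes, 323 kept direction and side of the adjusted threshold, 7 newly passed it (Il4, Jak2, Cish, Socs1 and Socs2) and 18 changed sign, in 6 genes whose log2 fold change had a confidence interval across 0. With median centring, these were Csf3r (0.15), Csf2ra (0.12), Il17ra (0.01) and Il17rc (0.14), and with quantile normalization Csf2ra (0.02) and Il17rc (0.14). Without each library in turn, the ranges were -0.06 to 0.03 for Csf3r, -0.03 to 1.82 for Csf2rb2, -0.38 to 0.00 for Il17ra, -0.28 to 0.17 for Il17rc and -0.06 to 0.13 for Ifnar2. Centring moved the median of all genes to 0.02 by its construction, and other causes were not tested. Depth limits Ifnar1, Il3ra, Il17rc, Il13ra1, Il21r and the ligands, with few reads per library. No paired analysis was possible because the groups share no mouse number.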

Other observations

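In 6 of the 8 named genes that were higher in MC-21 neutrophils with an unadjusted p under 0.05 from limma (Ifngr1, Il4, Jak2, Cish, Socs1 and Socs2), PBS replicate 6 was the highest PBS library, a share of 75%, against 50.9% of all 344 such genes. In Csf2rb it was PBS replicate 7 and in Il6st PBS replicate 8. Among the 5 named genes that were lower, PBS replicate 5 was the lowest PBS library in 4 (Il2rg, Il21r, Csf1r and Pias4), against 22.4% of all 1071 such genes. Il4 and Il21r, which these counts include, passed the filter through the group where they were higher, so their tests are no support for a difference.

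Across libraries of the same group the coefficient of variation of Csf3r was 9.17% in PBS and 1.88% in MC-21 neutrophils, and that of Csf2ra was 8.33% and 4.34%. That of Ifngr1 was 6.85% and 16.1%, and that of Csf2rb2 was the highest of the 10 receptors in both groups, at 70.1% and 105%. The ratio of Csf2rb2 to Csf2rb spanned a 16.7-fold range within the 7 libraries. The mean of Csf3r ranked 268th of the table, while that of Ifnar1 lay above 46.6% of the genes tested.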
